A study of Mus musculus with 8 samples.

Results

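The chemokine ligands are described here in effector Treg (eTreg) cells sorted from tumor and spleen. Members were taken by gene symbol, namely every gene whose name starts with Ccl, Cxcl, Xcl or Cx3cl followed by a digit, which gave 41 of the 49212 genes counted. They were divided by a known source into 5 ligands that T cells make (Ccl1, Ccl3, Ccl4, Ccl5 and Xcl1), 17 ligands of myeloid cells (macrophages, monocytes, neutrophils and dendritic cells) and 19 others of stroma, epithelium and lymphoid organs, pseudogenes included. A list names a source of its ligands, which need not be the only one. The course of each ligand over the libraries was then set beside that of Cd8a, a chain of the CD8 co-receptor of cytotoxic T cells, and of Lyz2, the lysozyme gene of macrophages and neutrophils.

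RNA-seq was done on 4 groups with 2 libraries each. WT mice carried the FoxP3YFP-Cre allele alone, and KO mice were Prdm1fl/flFoxP3YFP-Cre, so that Prdm1, which encodes the transcriptional regulator Blimp1, was deleted by a Cre that the Foxp3 locus drives. All mice were of the C57BL/6 strain, and all groups shared the YFP-Cre allele, a subcutaneous B16-OVA melanoma given at day 0 and intraperitoneal NP-OVA immunization, in complete adjuvant at day 0 and in incomplete adjuvant at day 7. Cells positive for CD45, CD3, CD4, CD44 and YFP were sorted from the spleen and from the tumor (TIL), whose stage was given as at most 1.5 cm3. Since the Foxp3 locus drives Cre, deletion by this allele is limited by design to cells that have turned on Foxp3. The animals' ages, the number pooled into a library and the independence of the 2 libraries of a group are not given by the labels, so p-values measure the spread between these libraries, which may be technical.

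Chemokines are small secreted proteins that bind to matrix and draw in leukocytes bearing the matching receptor. CCL3, CCL4 and CCL5 draw T cells, monocytes and NK cells, XCL1 attracts the XCR1-bearing dendritic cells that present antigen to CD8 T cells, and CCL1 is the ligand of CCR8, a receptor common on tumor Treg cells. Activated T cells and NK cells release these quickly, whereas CCL2 and its relatives recruit monocytes through CCR2, CXCL1 to CXCL3 recruit neutrophils through CXCR2, and CXCL9 to CXCL11 are induced by interferon and recruit effector T cells through CXCR3.

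Promoter windows are shown for the neutrophil ligands Cxcl1, Cxcl2 and Cxcl3, whose levels took the same order in the TIL libraries, and for the interferon-induced Cxcl10, which took another. The windows are RefSeq's for GRCm38.p6 and run from 250 bases before the start site to 50 bases after it, chr5:90890995-90891294, chr5:90903649-90903948 and chr5:90785851-90786150 on the plus strand and chr5:92348840-92349139 on the minus strand. Capitals mark matches, read on both strands, to an NF-kB motif, spelled GGG, then 3 bases of any kind, then TTCC, or to an interferon-stimulated response element, spelled GAAA, then 2 bases of any kind, then GAAA.
Cxcl1: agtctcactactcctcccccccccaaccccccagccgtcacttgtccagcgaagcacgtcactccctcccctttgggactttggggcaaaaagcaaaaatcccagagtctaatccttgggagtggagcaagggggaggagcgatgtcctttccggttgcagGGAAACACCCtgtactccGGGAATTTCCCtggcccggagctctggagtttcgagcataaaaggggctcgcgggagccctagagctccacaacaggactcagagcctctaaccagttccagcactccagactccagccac
Cxcl2: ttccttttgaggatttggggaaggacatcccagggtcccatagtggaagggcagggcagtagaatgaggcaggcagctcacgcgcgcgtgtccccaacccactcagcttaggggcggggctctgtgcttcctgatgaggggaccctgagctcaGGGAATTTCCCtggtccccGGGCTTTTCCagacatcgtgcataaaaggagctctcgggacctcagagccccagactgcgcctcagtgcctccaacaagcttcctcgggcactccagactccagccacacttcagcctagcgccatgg
Cxcl3: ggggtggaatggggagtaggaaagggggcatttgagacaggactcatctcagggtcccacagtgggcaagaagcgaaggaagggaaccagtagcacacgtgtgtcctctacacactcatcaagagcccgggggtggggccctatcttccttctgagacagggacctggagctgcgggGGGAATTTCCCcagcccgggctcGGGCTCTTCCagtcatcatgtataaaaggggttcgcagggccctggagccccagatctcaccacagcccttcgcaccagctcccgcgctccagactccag
Cxcl10: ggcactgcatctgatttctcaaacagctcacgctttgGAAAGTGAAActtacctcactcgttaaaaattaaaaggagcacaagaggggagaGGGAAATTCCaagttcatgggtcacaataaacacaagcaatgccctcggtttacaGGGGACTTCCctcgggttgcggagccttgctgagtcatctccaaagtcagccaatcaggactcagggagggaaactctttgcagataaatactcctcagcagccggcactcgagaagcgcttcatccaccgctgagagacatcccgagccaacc
All 4 windows held an NF-kB match, and Cxcl1, Cxcl2 and Cxcl3 shared the letters GGGAATTTCC at positions -71, -97 and -73 from the start site, which match on both strands in overlapping positions. Cxcl10 held NF-kB matches at -159 and -104 and the response element GAAAGTGAAA at -213. Of the 27 members with a window, 7 had the NF-kB motif, Ccl1, Ccl9, Ccl20 and the 4 shown, against 5.56% of 32544 windows of the same length, and 3 had the response element, Cxcl10, Cxcl14 and Ccl19, against 3.45%. A match is a description of letters and not of a bound factor.

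The libraries differed in markers of the sorted cells and of other cells. Prdm1 stood at 54.1 and 21.0 CPM (counts scaled to library size by TMM) in WT and 40.7 and 53.4 CPM in KO splenic cells, and at 108 and 192 CPM in WT and 90.7 and 75.1 CPM in KO TIL. These counts cover the whole gene, exons outside the floxed part included, and so do not check the deletion. Foxp3, which defines Treg cells, was at 25.5 and 60.5 CPM in WT TIL but 10.2 and 2.99 CPM in KO TIL, and Cd4 at 807 and 1086 against 148 and 66.2 CPM, so both were lowest in the libraries labelled KO TIL, whose label goes against these markers and is used here as a name. Cd8a, which a CD4 gate should leave out, reached 217 and 1214 CPM in KO TIL and 71.8 and 9.69 CPM in WT TIL, against 2.33 to 5.96 CPM in spleen. Lyz2 was highest in KO TIL replicate 1, with 9554 and 840.4 CPM in KO TIL, 1567 and 129.7 CPM in WT TIL, 28.6 and 99.0 CPM in WT spleen and 18.5 and 71.3 CPM in KO spleen. The 9 macrophage markers, all detected in every library, summed to 381 to 2666 CPM in spleen, 15389.7 and 1788 CPM in KO TIL and 3398 and 588 CPM in WT TIL, and 4 Treg markers summed to 895 to 1311 CPM in spleen, 601 and 1067 CPM in KO TIL and 5019 and 6859 CPM in WT TIL. The 6 melanoma markers summed to 3201 and 830.1 CPM in KO TIL and 2078 and 1140.1 CPM in WT TIL, all detected there, against 3.69 to 6.74 CPM in spleen with 2 to 4 of the 6 at 0, and so moved with tissue as the ligands below did. The part of these markers in the results on ligands was not tested, and in bulk RNA fewer cells of a type and less RNA per cell cannot be told apart.

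The ligands filled little of the splenic libraries and more of the TIL libraries. Summed over the 41 members they reached 8578 and 4141 CPM in KO TIL and 3803 and 993 CPM in WT TIL, against 103 to 249.7 CPM in spleen. In KO TIL replicate 1 the T cell ligands made up 12.6% of ligand counts (Wilson 95% interval 12.5 to 12.7%, counting error only), and in KO TIL replicate 2 they made up 55.7% (55.4 to 56.0%). In WT TIL the shares were 21.7% (21.5 to 22.0%) in replicate 1 and 53.6% (53.0 to 54.2%) in replicate 2. The 2 libraries of each TIL group thus lay further apart than the groups did. In spleen the T cell ligands held 51.1% and 55.9% of ligand counts in WT and 41.4% and 26.6% in KO, and both KO shares lay below both WT shares.

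**Figure D1:**
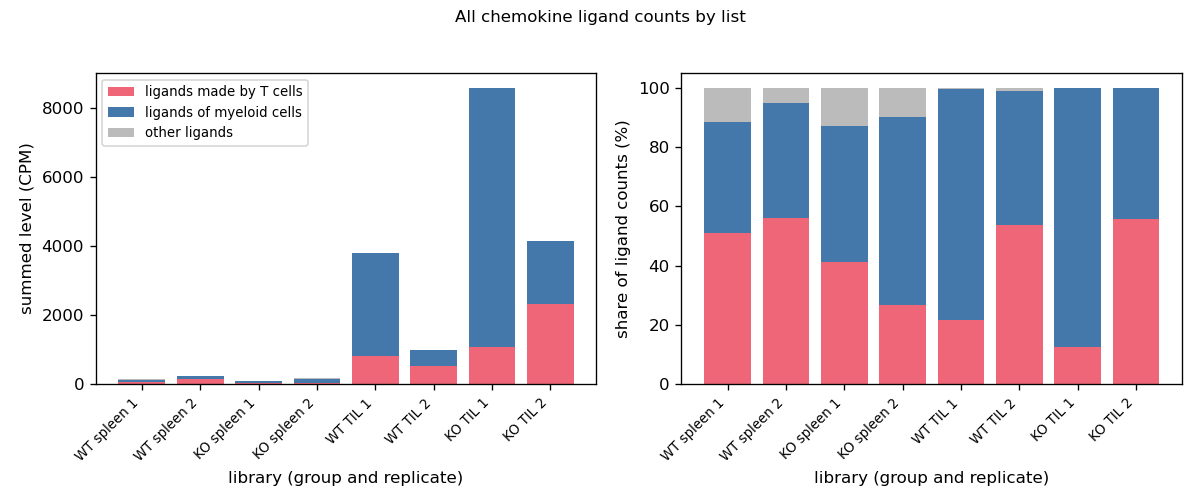
Summed level in CPM (left) and share of ligand counts in percent (right) of the chemokine ligands in each of the 8 libraries, stacked by list. The tallest bar is KO TIL replicate 1 at 8578 CPM, where T cell ligands hold 12.6% of the counts against 55.7% in KO TIL replicate 2.

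Compared per length of exon, which allows genes to be ranked within a group, Ccl5 led in WT spleen at 88.2 ± 45.4 CPM per kb (SD, n = 2), in KO spleen at 34.0 ± 6.52 and in KO TIL at 853 ± 694. In WT TIL Ccl4 at 334 ± 203, Ccl5 at 328 ± 24.0 and Ccl7 at 313 ± 347 CPM per kb did not differ beyond their spread. Behind Ccl5 in KO TIL came Ccl6 at 692 ± 628, Ccl4 at 658 ± 36.9 and Ccl8 at 613 ± 342 CPM per kb, again within the spread of the libraries. In spleen the next were the interferon-induced Cxcl10, at 18.0 ± 1.19 CPM per kb in WT and 17.4 ± 0.771 in KO, and the macrophage ligand Ccl6, at 12.5 ± 12.9 and 16.03 ± 19.8.

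Each tissue comparison asked which ligands differed between TIL and splenic eTreg cells of a genotype. A gene passed edgeR's quasi-likelihood test at a Benjamini-Hochberg adjusted p under 0.05, over all genes tested, with a log2 fold change above 1 in size. In WT, 13 of the 24 members tested passed higher in TIL and 0 lower, where 5.97% of all 16427 genes passed, 4.10% higher and 1.87% lower. In KO, 9 of 26 passed higher and 0 lower, where 1.35% of 16933 genes passed, 0.803% higher and 0.543% lower. At an unadjusted p under 0.05 there were 19 members in WT and 22 in KO, against 20.5% and 31.0% of all genes. DESeq2's Wald test called 17 members higher in WT and 21 in KO, where it called 6.55% and 13.2% of all genes higher. These were 4 T cell and 13 myeloid ligands in WT, and 5 and 16 in KO. In WT 20 tested members had both TIL libraries above both splenic ones (25.1% of all genes), and in KO 22 had (30.6%), with 2 below, Ccl20 and Ccl25 (32.9%). Of the members tested, 9 in WT and 14 in KO lay under 1 CPM in both splenic libraries. The filter on low counts was met in both splenic libraries by 17 members in WT and 15 in KO, and the other 7 and 11 passed it through TIL. Those 7 in WT, namely Cxcl1, Cxcl3, Ccl2, Ccl7, Ccl8, Ccl12 and Ccl22, were all among the 13 called. Of the 11 in KO, Ccl2, Ccl3, Ccl7, Ccl12, Ccl17 and Ccl22 were called and Cxcl1, Cxcl2, Cxcl11, Cxcl13 and Ccl9 were not. Members admitted through TIL could hardly come out lower there, so these counts and the medians below partly follow from the filter. The 2 lists both contributed, with 2 of 5 T cell ligands called in each genotype, and 11 of 15 myeloid ligands tested called in WT and 7 of 16 in KO. Their median log2 fold changes were 2.13 and 6.41 in WT and 4.65 and 8.16 in KO, beside -0.04 and 0.01 over all genes tested. Setting members against 0 counts at their lower bound could not move these medians, because each bound lay above the median of its list.

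Leaving out 1 library, which leaves a lone library assumed to vary like the other group, moved these counts. In WT 7 members were called without splenic replicate 1 (7.87% of all genes), 4 without splenic replicate 2 (1.22%), 9 without TIL replicate 1 (2.88%) and 16 without TIL replicate 2 (5.82%). Ccl3, Ccl4 and Ccl8 were called under all 4 omissions. Ccl2, Ccl7 and Ccl12 lost the call without splenic replicate 2, and Cxcl1, Cxcl2 and Ccl9 lost it without either splenic library. Cxcl3, Ccl22, Cxcl16 and Ccl6 kept it without TIL replicate 2 alone. In KO 0 were called without either splenic library (0.00% of all genes). Without TIL replicate 1 there were 21 (19.7%), of which 1, Ccl25, was lower in TIL, and without TIL replicate 2 there were 21 (26.8%), all higher.

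Ccl3 and Ccl4, inflammatory ligands encoded side by side on chromosome 11 (83647844 to 83649355 and 83662584 to 83664683, GRCm38), rose in TIL of both genotypes. Ccl3 counted 0.569 and 0.963 CPM in WT spleen, 161 and 44.9 CPM in WT TIL, 0.0430 and 0.355 CPM in KO spleen and 239 and 455 CPM in KO TIL. No TIL value came near a splenic one, and the lowest was WT TIL replicate 2. Ccl3 rose by edgeR's test in WT (log2 fold change 7.07, SE 0.78, adjusted p = 0.00147) and in KO (log2 fold change 10.79, SE 1.05, adjusted p = 0.0374). Ccl4 counted 4.16 and 6.14 CPM in WT spleen, 315 and 126 CPM in WT TIL, 0.773 and 0.507 CPM in KO spleen and 451 and 417 CPM in KO TIL. The KO TIL libraries were close to each other, whereas the WT TIL libraries differed more than the splenic pair did. Ccl4 rose by edgeR's test in WT (log2 fold change 5.42, SE 0.63, adjusted p = 0.00168) and in KO (log2 fold change 9.41, SE 0.38, adjusted p = 0.0267). Without WT TIL replicate 1 the WT log2 fold changes were 5.89 for Ccl3 and 4.63 for Ccl4, and without WT TIL replicate 2 they were 7.75 and 5.97, all 4 still called. In KO the Ccl3 value went from 9.95 without KO spleen replicate 1 to 12.91 without KO spleen replicate 2, and neither gene was called without either splenic library.

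Ccl5, Xcl1 and Ccl1 lay higher in every TIL library than in any splenic library of the same genotype without passing edgeR's test. Ccl5 (chromosome 11, 83525778 to 83530518) counted 53.8 and 115 CPM in WT spleen, 298 and 331 CPM in WT TIL, 28.2 and 37.1 CPM in KO spleen and 348 and 1290.4 CPM in KO TIL. KO TIL replicate 2 stood apart, and the other 3 TIL libraries were within 298 to 348 CPM. The log2 fold change by edgeR's test was 1.89 (SE 0.51, adjusted p = 0.0569) in WT and 4.65 (SE 0.73, adjusted p = 0.0576) in KO, and DESeq2 called both (adjusted p = 0.00399 and 8.12e-11). Xcl1 (chromosome 1, 164931644 to 164935527), whose protein draws XCR1-bearing dendritic cells, counted 3.71 and 5.32 CPM in WT spleen, 30.5 and 9.05 CPM in WT TIL, 8.23 and 3.57 CPM in KO spleen and 35.4 and 122 CPM in KO TIL. WT TIL replicate 2 barely exceeded the KO spleen replicate 1 value. By edgeR's test the log2 fold change was 2.13 (SE 0.67, adjusted p = 0.0979) in WT and 3.74 (SE 0.78, adjusted p = 0.0660) in KO. Xcl1 shares 98 exonic bases with Gm20743 on the other strand, which had at most 63 counts in a library. Ccl1 (chromosome 11, 82176657 to 82305690) counted 7.31 and 11.7 CPM in WT spleen, 22.1 and 21.3 CPM in WT TIL, 5.20 and 2.86 CPM in KO spleen and 7.08 and 24.1 CPM in KO TIL. The WT TIL pair and KO TIL replicate 2 were alike, and KO TIL replicate 1 lay below a WT splenic library. Ccl1 had log2 fold changes of 1.19 in WT and 1.95 in KO (SE 0.51 and 0.70, adjusted p = 0.222 and 0.145 by edgeR's test). Its receptor Ccr8 counted 155 and 112 CPM in WT spleen and 853 and 950.3 CPM in WT TIL, where it rose, but 94.5 and 90.6 CPM in KO spleen and 83.2 and 55.6 CPM in KO TIL.

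**Figure D2:**
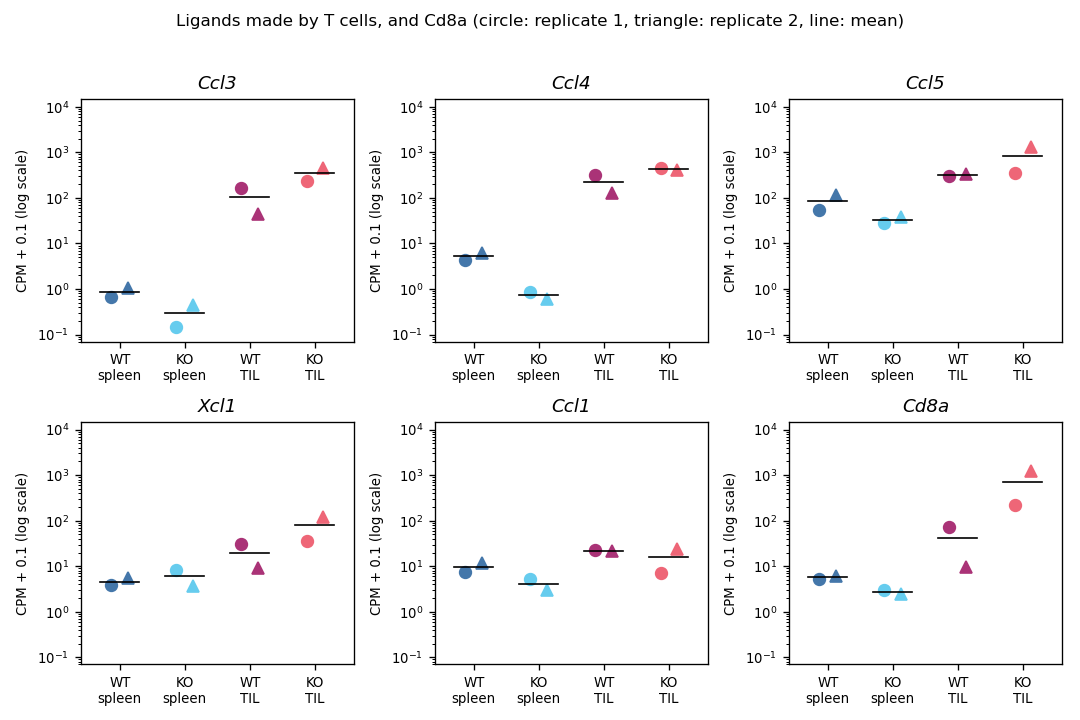
Levels of the 5 ligands that T cells make and of Cd8a in each library, as CPM plus 0.1 on a log axis, by group (circles replicate 1, triangles replicate 2, lines the mean of the 2). Ccl3 and Ccl4 lie below 7 CPM in all splenic libraries and at 44.9 CPM or more in all TIL libraries, and Cd8a is highest in KO TIL replicate 2 at 1214 CPM.

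Of the 7 monocyte and macrophage ligands 6 rose in WT TIL and 4 in KO TIL by edgeR's test, with median log2 fold changes of 9.03 and 9.40. DESeq2 called 6 in WT and all 7 in KO. Ccl2, Ccl7, Ccl12 and Ccl8, neighbours on chromosome 11 from 82035571 to 82116799, were near the limit of detection in spleen. Ccl2 had 0 counts in both WT splenic libraries and counted 0.0430 and 0.203 CPM in KO spleen, 399 and 37.3 CPM in WT TIL and 739.9 and 176 CPM in KO TIL. Every TIL value was far above spleen, with WT TIL replicate 2 the lowest. Ccl2 was at least 2214-fold higher in WT TIL (floor of 3 counts per library, adjusted p = 0.00206 by edgeR's test) and rose in KO TIL as well (log2 fold change 11.90, SE 1.32, adjusted p = 0.0431). Ccl7 also had 0 counts in WT spleen, 1 count in KO spleen, 447 and 54.2 CPM in WT TIL and 727 and 192 CPM in KO TIL. It was at least 2545-fold higher in WT TIL (adjusted p = 0.00163 by edgeR's test), and in KO TIL it was higher by 41379-fold (exact binomial 95% interval 7426 to 1634425) with an adjusted p of 0.0374. Ccl12, with 0 counts in WT spleen, 0.0644 and 0.279 CPM in KO spleen, 136 and 22.1 CPM in WT TIL and 219 and 62.5 CPM in KO TIL, followed the same pattern. It was at least 804-fold higher in WT TIL (adjusted p = 0.00168 by edgeR's test) and rose in KO TIL (log2 fold change 9.73, SE 1.14, adjusted p = 0.0473). Ccl8 counted 0.0898 and 0.464 CPM in WT spleen, 0.301 and 0.761 CPM in KO spleen, 239 and 47.0 CPM in WT TIL and 437 and 189.9 CPM in KO TIL, and rose by edgeR's test in WT (log2 fold change 9.03, SE 1.07, adjusted p = 0.00176) and KO (log2 fold change 9.24, SE 0.84, adjusted p = 0.0374). Without WT TIL replicate 1 the WT log2 fold change of Ccl8 was 7.44, and without WT spleen replicate 2 it was 10.61. The WT bounds rested mostly on TIL replicate 1. From TIL replicate 2 alone they were at least 379-fold for Ccl2, 550.3-fold for Ccl7 and 224-fold for Ccl12. In KO, omitting KO TIL replicate 1 or KO spleen replicate 2 gave for Ccl8 8.51 and 10.05, for Ccl2 10.51 and 13.31, and for Ccl12 8.54 and 11.06.

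Ccl6 and Ccl9, macrophage ligands of CCR1 next to each other on chromosome 11 (83572919 to 83593087), were called by edgeR's test in WT and not in KO. DESeq2 called both in each genotype, and the fitted KO values were the larger. Ccl6 was the member with the most counts, at 6.14 and 38.8 CPM in WT spleen, 3.65 and 53.9 CPM in KO spleen, 698 and 101 CPM in WT TIL and 2039.7 and 445 CPM in KO TIL. Both replicate 2 splenic libraries, which also had the higher Lyz2, lay above both replicate 1 libraries. Ccl6 rose in WT TIL (log2 fold change 4.14, SE 1.03, adjusted p = 0.0414) and had a log2 fold change of 5.46 (SE 1.63, adjusted p = 0.107) in KO by edgeR's test. Ccl9 counted 0.329 and 1.14 CPM in WT spleen, 0.0430 and 1.42 CPM in KO spleen, 364 and 35.7 CPM in WT TIL and 707 and 250.4 CPM in KO TIL. It rose in WT (log2 fold change 8.09, SE 1.19, adjusted p = 0.00458) and had a log2 fold change of 9.40 (SE 1.71, adjusted p = 0.0607) in KO by edgeR's test. Without WT TIL replicate 1 the WT values were 2.18 for Ccl6 and 5.62 for Ccl9, and without WT spleen replicate 2 they were 6.07 and 9.27. Ccl24, the eotaxin of alternatively activated macrophages and a ligand of CCR3, departed from the rest of its list. It counted 0.539 and 7.35 CPM in WT spleen, 9.06 and 2.19 CPM in WT TIL, 0.752 and 3.32 CPM in KO spleen and 30.6 and 54.5 CPM in KO TIL, so the tissues overlapped in WT and not in KO. Its log2 fold change was 0.50 in WT (SE 1.05, adjusted p = 0.834), turning to -0.82 without WT TIL replicate 1, and 4.39 in KO (SE 0.85, adjusted p = 0.0642) by edgeR's test.

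Cxcl1, Cxcl2 and Cxcl3, the neutrophil ligands printed above from the cluster on chromosome 5, rose in WT TIL by edgeR's test, and Cxcl3 rose in KO TIL. DESeq2 called 3 of the 4 neutrophil ligands higher in each genotype. Cxcl1 counted 0.0299 and 0 CPM in WT spleen, which is 1 count, 0 counts in KO spleen, 76.0 and 3.44 CPM in WT TIL and 167 and 25.0 CPM in KO TIL. It was higher in WT TIL by 2369-fold (exact binomial 95% interval 425 to 93607), with an adjusted p of 0.00623 by edgeR's test, and at least 1366-fold higher in KO TIL without passing (adjusted p = 0.0599), or 356-fold from KO TIL replicate 2 alone. Its fitted WT log2 fold change of 10.93 was 7.43 without WT TIL replicate 1, still called. Cxcl2 counted 1.47 and 2.00 CPM in WT spleen, 1.37 and 0.152 CPM in KO spleen, 276 and 18.1 CPM in WT TIL and 1046 and 212 CPM in KO TIL. The 2 libraries of each TIL group were several fold apart, with replicate 1 the higher in both genotypes. Cxcl2 rose in WT (log2 fold change 6.41, SE 1.12, adjusted p = 0.00917), and in KO its log2 fold change of 9.70 (SE 1.60) had an adjusted p of 0.0584 by edgeR's test. Cxcl3 counted 0.449 and 0.214 CPM in WT spleen, 0.537 and 0.583 CPM in KO spleen, 62.0 and 2.46 CPM in WT TIL and 86.6 and 40.3 CPM in KO TIL. It rose by edgeR's test in WT (log2 fold change 6.58, SE 1.33, adjusted p = 0.0187) and in KO (log2 fold change 6.84, SE 0.57, adjusted p = 0.0366). Without WT TIL replicate 1 the WT log2 fold changes were 3.40 for Cxcl2 and 2.89 for Cxcl3, and without WT TIL replicate 2 they were 7.35 and 7.56. The fourth neutrophil ligand, Cxcl5, reached 4.78 CPM in WT TIL replicate 1 and was under 1 CPM in the other 7 libraries. The neutrophil receptor genes Cxcr1 and Cxcr2 had 17 and 414 counts over all 8 libraries. The 5 neutrophil markers summed to 377 and 197 CPM in KO TIL, 63.6 and 5.13 CPM in WT TIL, with 1 of the 5 at 0 in the last, and 0.779 to 19.7 CPM in spleen, and their part in these levels was not tested.

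Cxcl9, Cxcl10 and Cxcl11, neighbours on chromosome 5 (92321347 to 92365485) that bind CXCR3, passed edgeR's test in neither genotype although the TIL libraries lay above the splenic ones throughout. DESeq2 called Cxcl9 and Cxcl10 in WT (adjusted p = 0.000857 and 0.00608) and all 3 in KO. Cxcl10 counted 38.7 and 42.5 CPM in WT spleen, 37.9 and 40.3 CPM in KO spleen, 152 and 108 CPM in WT TIL and 683 and 102 CPM in KO TIL. Its 4 splenic values agreed within 37.9 to 42.5 CPM, and KO TIL replicate 1 stood apart from the other 3 TIL libraries. The log2 fold change was 1.68 in WT (SE 0.44, adjusted p = 0.0515) and 3.36 in KO (SE 0.97, adjusted p = 0.101) by edgeR's test. Cxcl9 counted 0.419 and 2.14 CPM in WT spleen, 0.709 and 1.34 CPM in KO spleen, 26.1 and 3.75 CPM in WT TIL and 244 and 20.5 CPM in KO TIL. It too peaked in KO TIL replicate 1, with log2 fold changes of 3.54 in WT and 7.05 in KO (SE 1.03 and 1.48, adjusted p = 0.0757 and 0.0660 by edgeR's test). Cxcl11 counted 8.13 CPM in KO TIL replicate 1 and under 1 CPM in the other 7 libraries. Cxcl10 shares 133 exonic bases with Art3 on the other strand, which had 162 to 505 counts in the splenic libraries and 65 to 253 in TIL, beside 1190 to 1762 and 2715 to 21503 for Cxcl10, so part of the splenic Cxcl10 value is uncertain. Cxcl11 shares 1582 with Gm2673, which had 0 counts.

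Cxcl16, the ligand of CXCR6 that dendritic cells and macrophages hold on their surface, counted 1.92 and 2.498 CPM in WT spleen, 1.27 and 3.12 CPM in KO spleen, 48.7 and 12.7 CPM in WT TIL and 297 and 37.6 CPM in KO TIL. It rose in WT TIL (log2 fold change 3.80, SE 0.72, adjusted p = 0.0134) and had a log2 fold change of 6.29 (SE 1.29, adjusted p = 0.0660) in KO by edgeR's test. Without WT TIL replicate 1 the WT value was 2.54. It shares 552 exonic bases with Zmynd15, which had 417 counts in KO TIL replicate 1 and at most 69 elsewhere. Ccl22 and Ccl17, on either side of Cx3cl1 on chromosome 8 (94745590 to 94812036), encode the CCR4 ligands with which dendritic cells and macrophages attract Treg cells, and both were called in KO. Ccl22 counted 0.329 and 0.107 CPM in WT spleen, 0.0859 and 0.0254 CPM in KO spleen, 21.8 and 0.878 CPM in WT TIL and 41.0 and 13.8 CPM in KO TIL. It rose in WT (log2 fold change 5.66, SE 1.36, adjusted p = 0.0370) and in KO (log2 fold change 8.85, SE 0.98, adjusted p = 0.0431), with the WT value at 1.99 without WT TIL replicate 1, the library that held most of its WT counts. Ccl17 counted 0.0898 and 0.0357 CPM in WT spleen, 0.0215 and 0.0507 CPM in KO spleen, 1.22 and 0.0675 CPM in WT TIL and 9.53 and 3.97 CPM in KO TIL. It was not tested in WT, and in KO it was higher by 199.9-fold (exact binomial 95% interval 67.9 to 973) on 3 splenic counts, with an adjusted p of 0.0485 by edgeR's test.

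**Figure D3:**
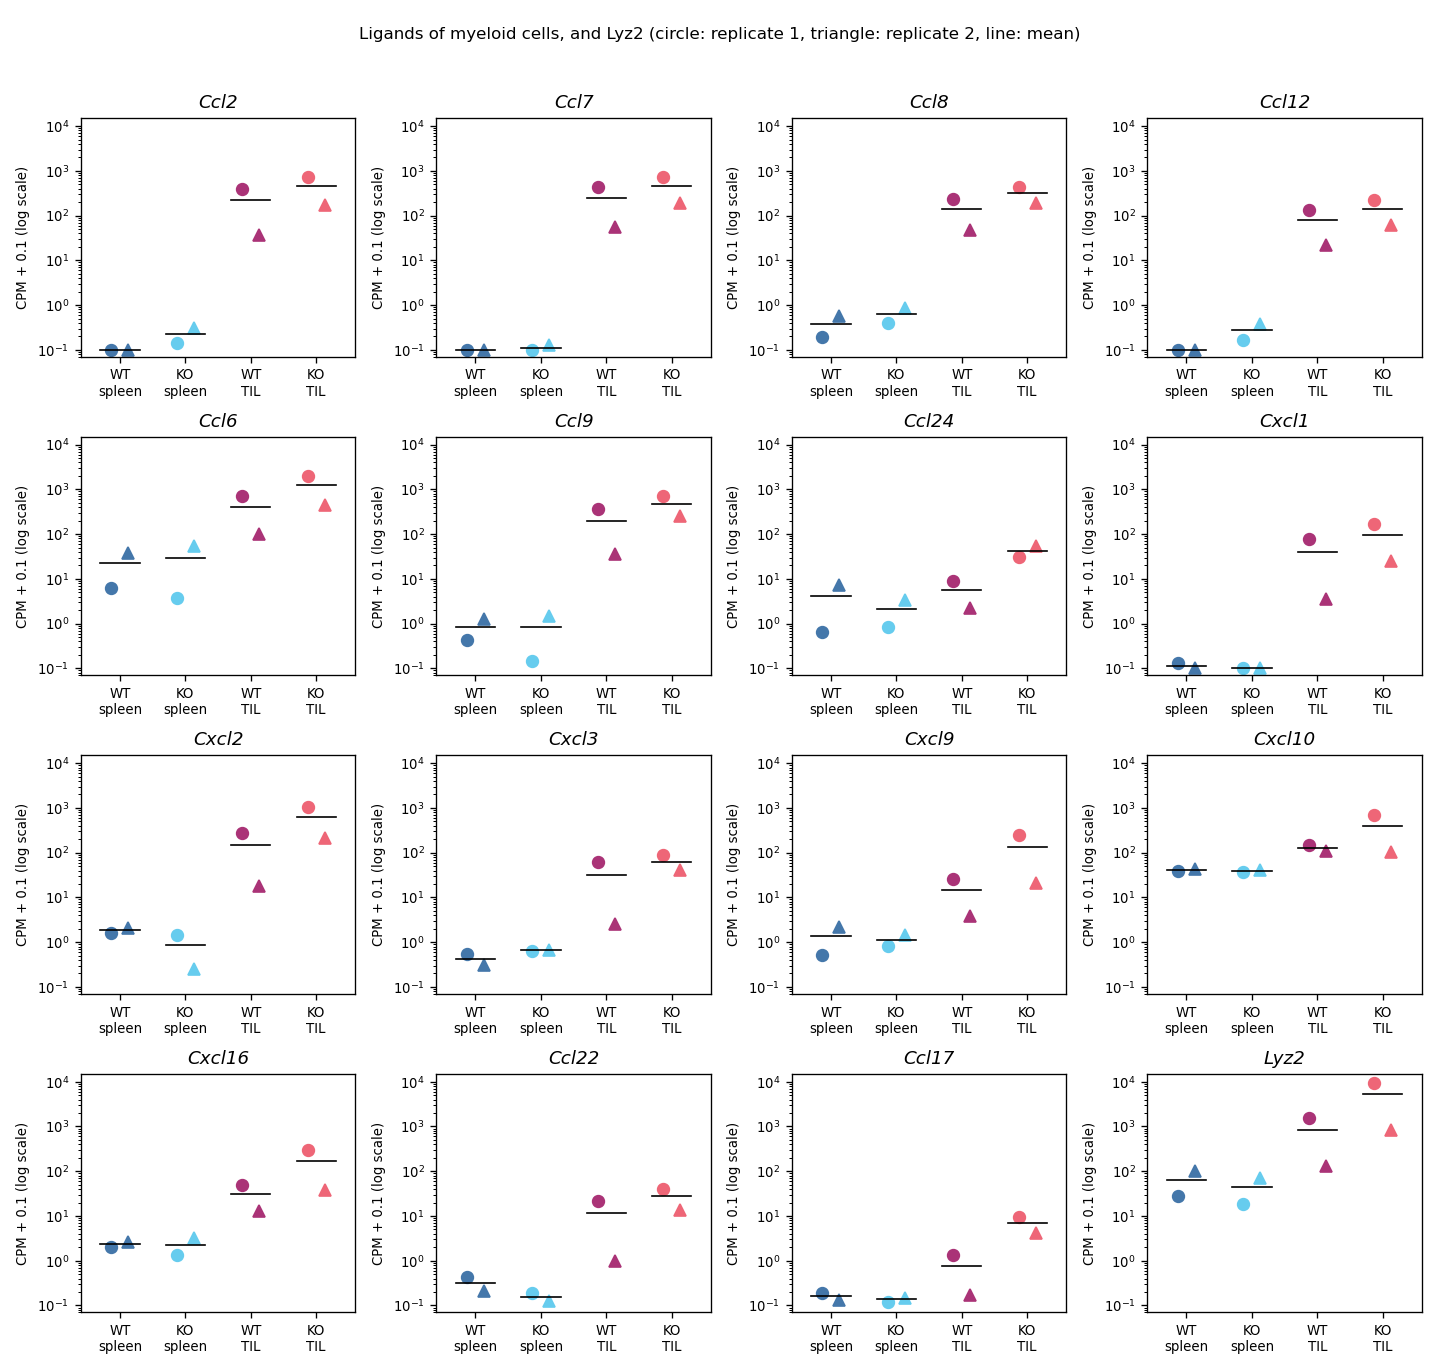
Levels of 15 ligands of myeloid cells and of Lyz2 in each library, as CPM plus 0.1 on a log axis, by group (circles replicate 1, triangles replicate 2, lines the mean of the 2). In the TIL groups the circle lies above the triangle for Lyz2 and for each ligand but Ccl24 in KO TIL.

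The 19 other ligands showed little in either tissue. Of these, 9 had 0 counts in all libraries (Ccl19, 2 Ccl19 pseudogenes, Ccl21a, Ccl21b, Ccl21c, Ccl26, Ccl27b and Ccl28), and 6 had 1 to 50 counts in all (Ccl11, Cxcl12, Cxcl13, Cxcl14, Cxcl15 and Cxcl17). The Ccl19, Ccl21 and Ccl27 genes have near-identical copies, whose reads are dropped where only unique ones are counted. Ccl25, the ligand of CCR9 made by thymic and gut epithelium, was the most abundant of the others, at 9.97 and 7.85 CPM in WT spleen, 9.92 and 12.7 CPM in KO spleen, 8.34 and 5.81 CPM in WT TIL and 8.16 and 4.60 CPM in KO TIL. Its levels moved by less than 3-fold over all libraries, with log2 fold changes between tissues of -0.33 in WT and -0.80 in KO (SE 0.57 and 0.44, adjusted p = 0.796 and 0.287 by edgeR's test). Its exons share 204 bases with Elavl1, which had 1889 to 9682 counts, and without strand their reads cannot be told apart. The remaining members, Ccl20, Ccl27a and Cx3cl1, lay between 0.112 and 5.52 CPM and passed in no comparison.

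**Figure D4:**
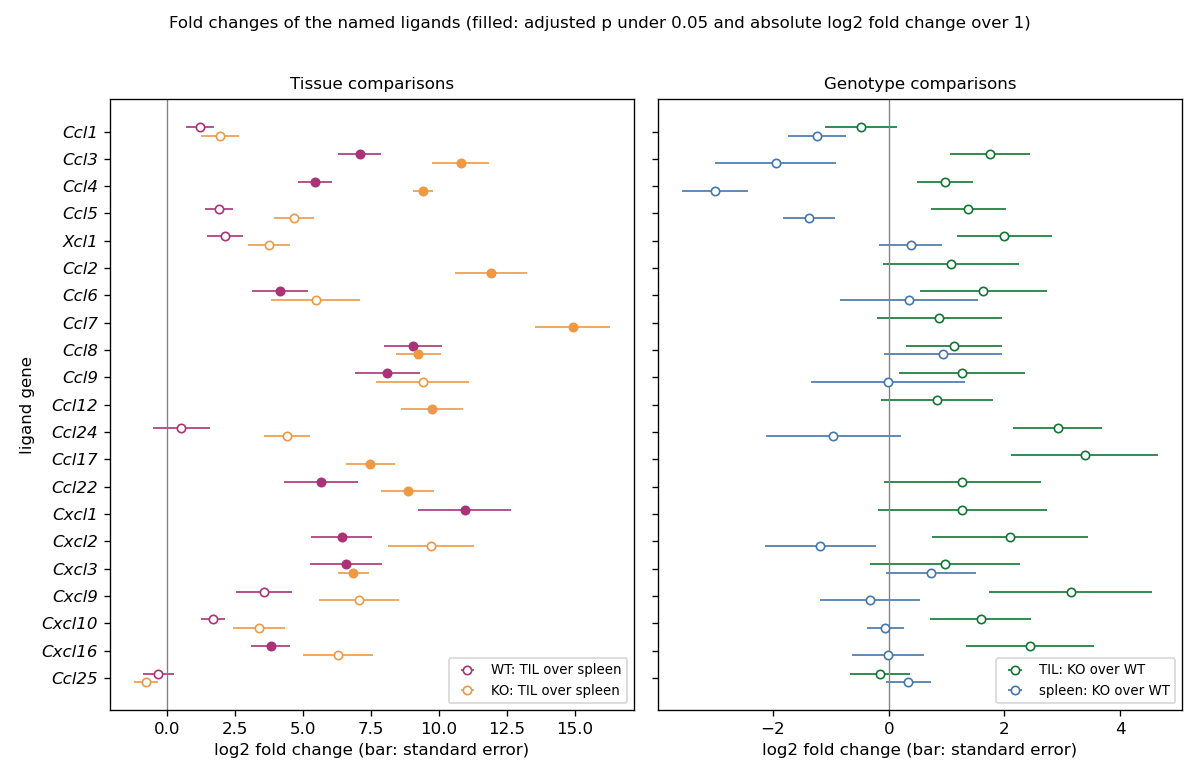
Log2 fold changes of the 21 named ligands with standard errors by edgeR's test, between tissues (left) and between genotypes (right), 2 libraries per group. Filled points were called (adjusted p under 0.05 and a log2 fold change above 1 in size), members not tested or with 0 counts in the comparison group have no point, and no genotype point is filled.

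Among the receptor genes described here, Ccr1, Ccr2, Ccr8, Ccrl2, Cxcr6, Xcr1 and Cx3cr1 passed higher in WT TIL than in WT spleen, and Ccr3, Ccr10 and Cxcr5 passed lower. In KO TIL Xcr1 and Cx3cr1 passed higher, and Ccr4 and Cxcr5 lower. Xcr1, the receptor of XCL1, was at 3.65 and 2.96 CPM in WT spleen, 2.32 and 1.90 CPM in KO spleen, 19.6 and 15.7 CPM in WT TIL and 19.4 and 15.1 CPM in KO TIL. The 4 TIL libraries were closer to each other for Xcr1 than for Xcl1.

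The course of each ligand through the TIL libraries was then set beside Cd8a and Lyz2. For a gene the log2 ratio of replicate 2 over replicate 1 (CPM plus 0.1) was taken within KO TIL and within WT TIL, and the gene was assigned to whichever reference lay nearer in this plane. The replicates have no order, and the measure is a description of 4 libraries with no test. Cd8a had 2.48 in KO and -2.88 in WT, and Lyz2 had -3.51 and -3.59, so the references had opposite signs in KO TIL and the same sign in WT TIL. Cd8a also lay nearer the point of no difference between replicates, so genes nearly level in both groups tend to fall to Cd8a. Ccl25, for one, lay 4.06 from Cd8a and 4.09 from Lyz2. Of the 25 members with a mean of at least 1 CPM in TIL, 8 lay nearer Cd8a and 17 nearer Lyz2. All 5 T cell ligands were among the 8, with Ccl24, Ccl25 and Ccl27a, and 16 of the 17 myeloid ligands were among the 17, with Cx3cl1. With a pseudocount of 1 in place of 0.1 the number nearer Cd8a was 9, and among members of at least 10 CPM it was 6. The shares of all genes nearer each reference are not given here, so these counts do not set the ligands apart from other genes.

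Within the T cell list the likeness to Cd8a was uneven. Xcl1 came nearest, with 1.79 in KO and -1.74 in WT, followed by Ccl3 with 0.93 and -1.84. These 2 genes and Ccl24, with 0.83 and -2.00, shared the order of Cd8a over the 4 libraries, from KO TIL replicate 2 through KO TIL replicate 1 and WT TIL replicate 1 down to WT TIL replicate 2. Ccl5 and Ccl1, like Cd8a, were higher in replicate 2 of KO TIL, by 1.89 and 1.75, but were nearly level between the WT TIL libraries, at 0.15 and -0.05. Ccl4 was nearly level between the KO TIL libraries at -0.11 and had -1.32 in WT. Set against Cd8a counts, the range over the 4 TIL libraries narrowed for Xcl1, from 13.5-fold in CPM to 9.28-fold per Cd8a count, and widened for the other 4, to 111-fold for Ccl1. It also narrowed for 5 of the 15 myeloid ligands described in full. Among these, Ccl24 went from 24.9-fold to 5.04-fold and Ccl17 from 141-fold to 13.4-fold, so this scaling did not set the T cell list apart. Cells other than CD8 T cells, NK cells among them, also make these ligands, and Ccl4 was highest in KO TIL replicate 1, the library highest in Lyz2. The 5 genes listed here as NK markers (Ncr1, Klrb1c, Klra8, Tyrobp and Fcer1g) need not be confined to NK cells. They summed to 2024 and 344 CPM in KO TIL and 461 and 99.7 CPM in WT TIL, with 1 of the 5 at 0 in the last. In spleen they summed to 60.9 to 667 CPM, with 2 of the 5 at 0 in each library. Their order in TIL was that of Lyz2 and not of Cd8a, and which cells they reflect was not tested. The 4 CD4 T cell markers summed to 931 and 3044 CPM in KO TIL. The part of either in these levels was not tested.

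The myeloid list followed Lyz2 more closely. The order of Lyz2, from KO TIL replicate 1 through WT TIL replicate 1 and KO TIL replicate 2 down to WT TIL replicate 2, was shared by 13 of the 17, and 15 of the 17 were highest in KO TIL replicate 1. The exceptions in order were Ccl24, Ccl17, Cxcl5 and Cxcl10. The share of all genes that took this order is not given here. Cxcl10, like Lyz2, was lower in replicate 2 of KO TIL, at -2.75, and less so in WT TIL, at -0.50. Per Lyz2 count, 14 of the 15 myeloid ligands described in full had a narrower range over the TIL libraries than in CPM, the exception being Cxcl10. Widely ranging genes that share the order of Lyz2 tend to narrow when divided by it, so this count adds little to the order. The share of all genes that narrowed is not given here. Cxcl9 narrowed from 65.0-fold to 1.74-fold and Cxcl2 from 57.9-fold to 2.30-fold, whereas Ccl24 narrowed only from 24.9-fold to 20.3-fold. Pf4, a chemokine whose symbol falls outside the rule, stood at 224 and 33.6 CPM in WT TIL and 161 and 51.7 CPM in KO TIL and did not take this order.

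The ligands were not in one ratio to Lyz2, however. Ccl2 counts per 100 Lyz2 counts were in KO TIL replicate 1 7.74, in KO TIL replicate 2 20.9, in WT TIL replicate 1 25.4 and in WT TIL replicate 2 28.8. Ccl8 counts per 100 Lyz2 counts were in KO TIL replicate 1 4.58, in KO TIL replicate 2 22.6, in WT TIL replicate 1 15.2 and in WT TIL replicate 2 36.3. Thus KO TIL replicate 1, the library highest in both genes, was lowest per Lyz2 count. The same held for 13 of the 15 myeloid ligands, the exceptions being Cxcl9 and Ccl17, and for all 5 T cell ligands. This library also had the most Lyz2, so any gene raised less there than Lyz2 is lowest per Lyz2 count by construction. Cxcl9 counts per 100 Lyz2 counts were in KO TIL replicate 1 2.55, in KO TIL replicate 2 2.44, in WT TIL replicate 1 1.66 and in WT TIL replicate 2 2.89, which was nearly level. Lyz2 is shared by macrophages, monocytes and neutrophils, and their proportions in a library were not measured.

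**Figure D5:**
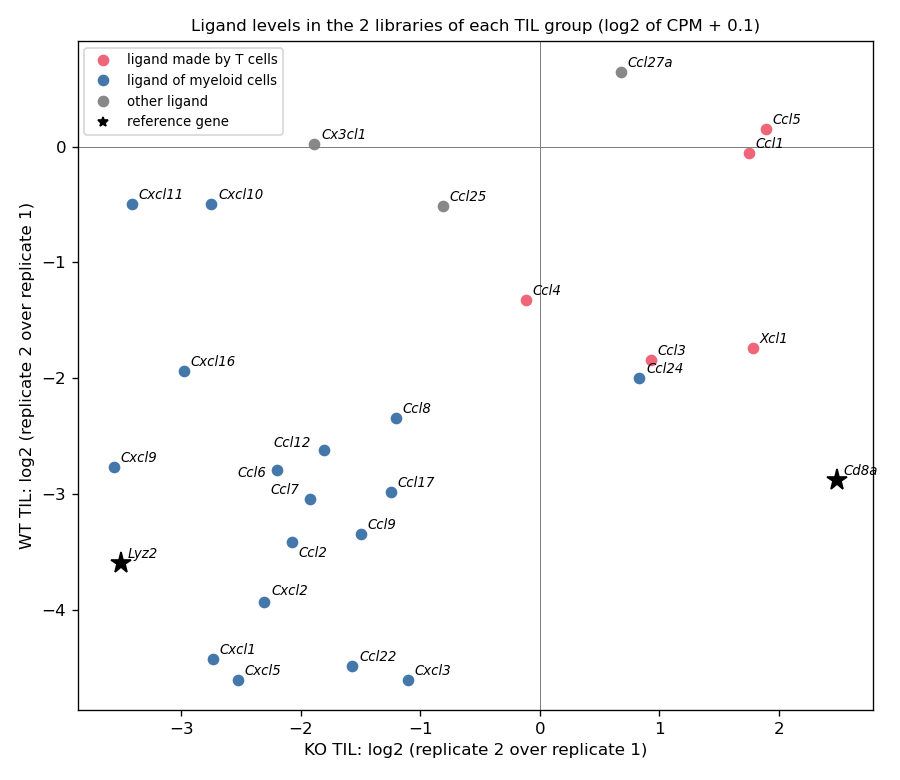
Log2 ratio of replicate 2 over replicate 1 (CPM plus 0.1) in KO TIL (x axis) and in WT TIL (y axis) for the 25 chemokine ligands with a mean of at least 1 CPM in TIL, with Cd8a and Lyz2 as stars. All 5 T cell ligands lie to the right of every myeloid ligand but Ccl24, and Xcl1 and Ccl3 are the T cell ligands nearest Cd8a.

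In spleen the replicates also differed in Lyz2. Lyz2 was higher in replicate 2 of both genotypes, by 1.79 in WT and 1.94 in KO on the log2 scale, while Cd8a differed by 0.19 and -0.33. Of the 15 myeloid ligands described in full, 7 had both replicate 2 libraries above both replicate 1 libraries (Ccl6, Ccl8, Ccl9, Ccl24, Cxcl9, Cxcl10 and Cxcl16), and of the 5 T cell ligands 0 had. The share of all genes with this pattern is not given here, so these counts do not set either list apart from other genes. Ccl6 differed by 2.64 in WT and 3.85 in KO, and Cxcl10 by 0.13 and 0.09.

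Between genotypes, the question was whether loss of Prdm1 changed ligand RNA in TIL or splenic eTreg cells. In TIL, edgeR's quasi-likelihood test called 0 of the 27 members tested and 0 of 15935 genes (0.00%), and 4 members had an unadjusted p under 0.05 (Cxcl13, Ccl24, Ccl3 and Ccl17) against 9.87% of all genes. Cxcl13, the B cell attractant, had 14 counts in each KO TIL library and 1 in each WT TIL library, a ratio of 13.8-fold (exact binomial 95% interval 3.48 to 119.7). DESeq2 called 2 members, both higher in KO, where it called 3.49% of all genes higher. These were Ccl24 (adjusted p = 0.00398), with a log2 fold change of 2.92 (SE 0.77) and an adjusted p of 0.313 by edgeR's test, and Ccl17 (adjusted p = 0.0416), with 3.38 (SE 1.27) and 0.479. Both had KO TIL values above both WT TIL values. Non-overlap of this direction held for 7 members against 18.0% of all genes, and 1 member, Ccl20, lay lower in both KO libraries against 19.4%.

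Among the T cell ligands, Ccl3, Ccl4, Ccl5 and Xcl1 had each KO TIL library above each WT TIL library without passing. Xcl1 had a log2 fold change of 2.00 (SE 0.82, adjusted p = 0.524), Ccl3 1.75 (SE 0.69, adjusted p = 0.505), Ccl5 1.38 (SE 0.65, adjusted p = 0.583) and Ccl4 0.98 (SE 0.49, adjusted p = 0.615) by edgeR's test. Without KO TIL replicate 2 the value for Ccl5 was 0.13 and for Xcl1 0.82, so the Ccl5 difference rested on that library. It was also the library richest in Cd8a, and the part of the Cd8a level in this difference was not tested. Ccl1 overlapped, at -0.48 (SE 0.62), and turned to 0.15 without KO TIL replicate 1. Per Cd8a count the 2 KO TIL libraries were below both WT TIL libraries for each of the 5, at 110.0 and 37.4 Ccl3 counts per 100 Cd8a counts in KO against 224 and 463 in WT. The KO TIL libraries had the most Cd8a, so any gene raised less there than Cd8a is lower per Cd8a count by construction. In the myeloid list the same held for Ccl2 and Ccl8, for example, and not for Cxcl2 or Cxcl3.

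Among the 17 myeloid ligands 16 had positive log2 fold changes in TIL, with a median of 1.27 beside 0.04 over all genes, and in 15 of these 17 the genotypes overlapped, the exceptions being Ccl24 and Ccl17. The largest after Ccl17 were Cxcl9 at 3.15 (SE 1.41, adjusted p = 0.569), Ccl24 and Cxcl11 at 2.54 (SE 1.20, adjusted p = 0.589), by edgeR's test. Leaving out KO TIL replicate 1, where Lyz2 was highest, brought Cxcl9 to 0.46, Cxcl16 from 2.44 to 0.29 and Ccl6 from 1.64 to 0.16. Leaving out WT TIL replicate 1 raised them to 5.12, 3.71 and 3.61, and 0 members were called under either omission. Without KO TIL replicate 1 the sign turned for Cxcl11 to -0.16, Cxcl10 from 1.59 to -0.36, Cxcl1 from 1.27 to -0.67, Ccl2 from 1.07 to -0.31, Ccl7 from 0.87 to -0.39 and Ccl12 from 0.83 to -0.34, whereas without WT TIL replicate 1 it was 4.78 for Cxcl1, 3.60 for Ccl2, 3.07 for Ccl7 and 2.66 for Ccl12. The member with a negative value, Cxcl5 at -3.30 (SE 2.03), was 1.21 without WT TIL replicate 1.

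In spleen edgeR's test called 0 of 19 members and 0 of 16583 genes (0.00%), and 3 T cell ligands had an unadjusted p under 0.05 (Ccl4, Ccl5 and Ccl1) against 2.95% of all genes. DESeq2 called Ccl4 alone, where it called 0.0446% of all genes lower. Ccl4 averaged 0.640 ± 0.188 CPM in the KO splenic libraries against 5.15 ± 1.40 CPM in the WT ones (SD, n = 2), a log2 fold change of -3.01 (SE 0.57) with an adjusted p of 0.634 by edgeR's test and 0.00117 by DESeq2. With each library left out the Ccl4 value stayed between -3.31 and -2.69. Ccl3, Ccl5 and Ccl1 also lay lower in both KO libraries, at -1.95 (SE 1.04), -1.38 (SE 0.45) and -1.25 (SE 0.50), each with an adjusted p of 0.878 by edgeR's test, and Xcl1 overlapped at 0.38 (SE 0.55). In all, 7 members tested lay lower in both KO splenic libraries, against 15.7% of all genes, and 1 higher, Cxcl3, against 16.4%. Without WT spleen replicate 1 edgeR's test called Ccl4, Ccl5 and Ccl1, 3 of 20 members, where it called 22.1% of all genes. The 10 myeloid ligands tested had a median log2 fold change of -0.04 beside -0.02 over all genes, from -1.18 for Cxcl2 to 0.94 for Ccl8. The 2 CD8 markers summed to 15.0 and 17.5 CPM in KO spleen against 24.3 and 30.7 CPM in WT spleen, lower in both KO libraries like Ccl4, and their part in its difference was not tested.

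The genotype difference in TIL minus that in spleen was tested as an interaction over all 8 libraries. By edgeR's test 0 of 28 members and 0 of 17870 genes (0.00%) passed, with 6 members under an unadjusted p of 0.05 against 7.83% of all genes. DESeq2 called Ccl4 and Ccl3 (adjusted p = 0.000199 and 0.0387), where it called 1.27% of all genes higher. The log2 interaction was 3.97 (SE 0.69, adjusted p = 0.177 by edgeR's test) for Ccl4, 3.72 (SE 1.19, adjusted p = 0.464) for Ccl3 and 2.76 (SE 0.86, adjusted p = 0.441) for Ccl5. The 5 T cell ligands had a median interaction of 2.76 beside 0.07 over all genes, and Ccl1, at 0.76, turned to -0.36 without KO TIL replicate 2.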

How the data were processed

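Total RNA was extracted from sorted cells, depleted of rRNA, primed with random hexamers and sequenced. Per the labels and the submitters' processing notes, the authors trimmed reads with Trimmomatic 0.36, aligned them to GRCm38 with STAR 2.5.2b and counted unique exonic reads per gene with featureCounts (Subread 1.5.2), and deposited the raw counts used here. Whether strand was used is not given in the sources used here. Libraries held 27834676 to 43903859 counts. A table of normalized values was deposited as well and was not used. Comparisons were fitted on their 4 libraries, and the interaction on 8, with edgeR 4.0.16 in R 4.3.3 (TMM, filterByExpr, quasi-likelihood test), and DESeq2 1.42.0 was an alternative. The SE is the log2 fold change over the square root of F. Both tools were tested on simulated data. Described in full were the T cell list, members called in any comparison and those with a mean of at least 5 CPM, 21 in all. The members, lists and measures were chosen with earlier results of these data known. Replicates of a group differed beyond sampling noise (chi-square over degrees of freedom, 37.2 to 344). Gene positions are those of the count files, and 27 of 41 members matched a RefSeq promoter window by symbol. Not every receptor gene is reported here. Intervals and floors are for counting error alone, since amplified reads that carry no molecular identifier need not come from separate molecules.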

Additional observations from a re-analysis of the deposited data

Results flagged for a closer look

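Ccl3, Ccl4 and Ccl5 drew attention because every KO library lay above both WT libraries in TIL and below both WT libraries in spleen. A positive interaction follows from this choice. Over all genes 18.0% lay higher in KO without overlap in TIL and 15.7% lower in spleen, and the share with both is not given here. The genotype difference in TIL minus that in spleen, on the log2 scale, was 3.72 for Ccl3, 3.97 for Ccl4 and 2.76 for Ccl5, and edgeR's quasi-likelihood test of this difference gave adjusted p-values of 0.464, 0.177 and 0.441. Without KO TIL replicate 2 the Ccl5 value was 1.55, and over the single omissions that of Ccl4 ranged from 3.44 to 4.81 and that of Ccl3 from 2.86 to 5.78. Groups of 2 libraries allow no test for a library that stands apart.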

How the results depend on the processing

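The number of members called depended on the processing. For settings other than DESeq2 and the omissions, the share of all genes called is not given here. Those counts therefore do not set the ligands apart from other genes. For WT TIL against spleen it was 13 and lay between 9 and 18 under the alternatives, and from 4 to 16 with each library left out. For KO TIL against spleen it was 9, and rose to 21 by DESeq2, 20 with no filter on low counts and 17 with edgeR fitted on all 8 libraries, with 0 to 21 under single omissions. For KO against WT it was 0 in TIL, where DESeq2 called 2 and no filter called 6 (0 under every omission), and 0 in spleen, where DESeq2 and no filter each called 1 and omissions gave 0 to 3. For the interaction DESeq2 called 2 and no filter 8. Same-numbered replicates share only a number: their deviations correlated at -0.02 in WT and -0.22 in KO between tissues, and at 0.23 in TIL and 0.15 in spleen between genotypes. The replicate block gave 16, 10, 6 and 1 calls in the 4 comparisons in the order above, and the crossed block, chosen after seeing the data, gave 20 in KO. Of the single values, splenic genotype differences near 0 turned sign: Cxcl10 to 0.0041 with no filter, Cxcl16 to 0.012 by DESeq2 and 0.054 with no filter, Ccl9 to 0.010 and 0.076, and Ccl6 to -0.13 with the replicate block. Under single omissions the sign turned within these ranges of log2 fold change: between tissues, Ccl24 -0.82 to 3.42 in WT, and in KO Ccl27a -0.0029 to 0.68 and Cx3cl1 -0.17 to 1.84. In TIL between genotypes they were Cxcl1 -0.67 to 4.78, Cxcl5 -9.10 to 1.21, Cxcl10 -0.36 to 2.37, Cxcl11 -0.16 to 3.41, Ccl25 -0.62 to 0.19, Ccl27a -0.07 to 0.75, Cx3cl1 -1.49 to 0.45, Ccl2 -0.31 to 3.60, Ccl7 -0.39 to 3.07, Ccl12 -0.34 to 2.66 and Ccl1 -1.64 to 0.15. In spleen between genotypes they were Xcl1 -0.31 to 0.87, Cxcl9 -1.003 to 1.29, Cxcl10 -0.095 to 0.017, Ccl24 -2.37 to 1.91, Cxcl16 -0.79 to 0.52, Ccl9 -3.98 to 1.14 and Ccl6 -2.61 to 2.23. The interaction turned for Ccl1, Ccl6, Ccl7, Ccl8, Ccl20, Cxcl3, Cxcl5, Cxcl10 and Cxcl13. The cause of each was not tested. Of the single-gene values under these alternatives, 137 of 180 in WT and 115 of 189 in KO between tissues, and 167 of 189 in TIL and 111 of 135 in spleen between genotypes, kept their direction and their side of the threshold. The number of members nearer Cd8a was 8 with CPM of the total count or DESeq2's size factors. Depth limits the members near 0 in spleen, where Cxcl1 in WT rests on 1 count, Ccl7 in KO on 1 and Ccl17 in KO on 3.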
